A study of Arabidopsis with 26 samples.

Results

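The occupancy of SYD with and without SWI3D was described from 4 ChIP-seq peak lists of 26 in the series. The lines were taken from the names of the deposited lists: 2 are named SYD-GFP syd-5 swi3d-1 (bio1 and bio2) and 2 are named SYD-GFP syd-5 (bio1 and bio2). The members are the 14462 SYD regions of chromosomes 1 to 5, that is, merged stretches that hold a peak of both SYD-GFP syd-5 lists. A region was called kept where both swi3d-1 lists had a peak overlapping it by at least 1 bp, partly kept where 1 of them did, and lost where neither did. Lost therefore means not called in either list, and does not show that SYD is absent.

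SYD is an ATPase of the SWI/SNF chromatin remodelling complexes, which use ATP to slide or evict nucleosomes and so open or close regulatory DNA. In Arabidopsis such complexes come in classes built around BRM, around SYD or around the MINU ATPases. SWI3D is the SWI3 scaffold of the SYD class, SWI3C that of the BRM class, and SWI3A and BSH go with the MINU class, while SWP73B and the BCL7 proteins are shared. SYD is known for its roles in meristem maintenance, flower development and hormone responses.

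In the SYD-GFP syd-5 swi3d-1 line the tagged SYD is carried in plants with the syd-5 and swi3d-1 alleles. In the SYD-GFP syd-5 line the same fusion is carried with syd-5 alone, so both lines share the fusion and the syd-5 background and differ, by name, in swi3d-1. All samples were whole seedlings 14 days old, fixed with formaldehyde and precipitated with an antibody against GFP. SYD-GFP syd-5 has another 2 lists, bio3 and bio4, which defined no region and are shown beside the results. Each sample was a weighed amount of seedlings, so it pools many plants. The promoter of the fusion, and whether a line goes back to 1 transformant, are not given in the sources used here. In whole seedlings, fewer cells with SYD at a site and less SYD per cell cannot be told apart.

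Label and list name stated different lines for 19 of 26 samples, among them all 4 used here. The lists named SYD-GFP syd-5 swi3d-1 are labelled SWP73A-GFP swp73a-2 and SWI3D-GFP swi3d-1, and those named SYD-GFP syd-5 bio1 and bio2 are labelled BSH-GFP bsh and SWI3C-GFP. Inside the lists, the peak names begin with SG_syd-5_3d in both swi3d-1 lists and with SG_syd-5 in SYD-GFP syd-5 bio1 and bio2. The other 22 lists carry no line in their peak names. None of the 4 lists held peaks on the organelle genomes, and neither did 10 of the other 22, while 12 lists held between 62 and 139.

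SYD was called at far fewer sites in the swi3d-1 line, and the peaks that were called were narrower and lower. The swi3d-1 lists held 5227 and 4383 peaks, against 16114 and 17283 in SYD-GFP syd-5 bio1 and bio2. These peaks covered 2.91 and 2.25 Mb in swi3d-1, against 15.7 and 17.8 Mb. The median peak width was 448 and 422 bp in swi3d-1, against 655 and 683 bp. In each of these quantities both swi3d-1 lists lay below both SYD-GFP syd-5 lists, and also below bio3 and bio4, which held 16223 and 16082 peaks.

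The means were 4805 ± 597 peaks in swi3d-1 and 16699 ± 827 in SYD-GFP syd-5 (SD, n = 2 each), a log2 ratio of -1.80. Covered length averaged 2.58 ± 0.464 Mb in swi3d-1 and 16.8 ± 1.53 Mb in SYD-GFP syd-5, a log2 ratio of -2.70. The median width averaged 435 ± 18.4 bp in swi3d-1 and 669 ± 19.8 bp in SYD-GFP syd-5, a log2 ratio of -0.62. In an exact two-sided permutation test each of the 3 ratios had p = 0.333, also after Benjamini-Hochberg adjustment, which is the smallest p that 2 lists against 2 can give. The protocol speaks of biological replicates, but no label says how they were separated, so these p-values measure only the spread between samples, which may be technical. When lines were read by sample label, the log2 ratio was -0.18 for peak number, -0.23 for covered length and -0.14 for median width.

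**Figure D1:**
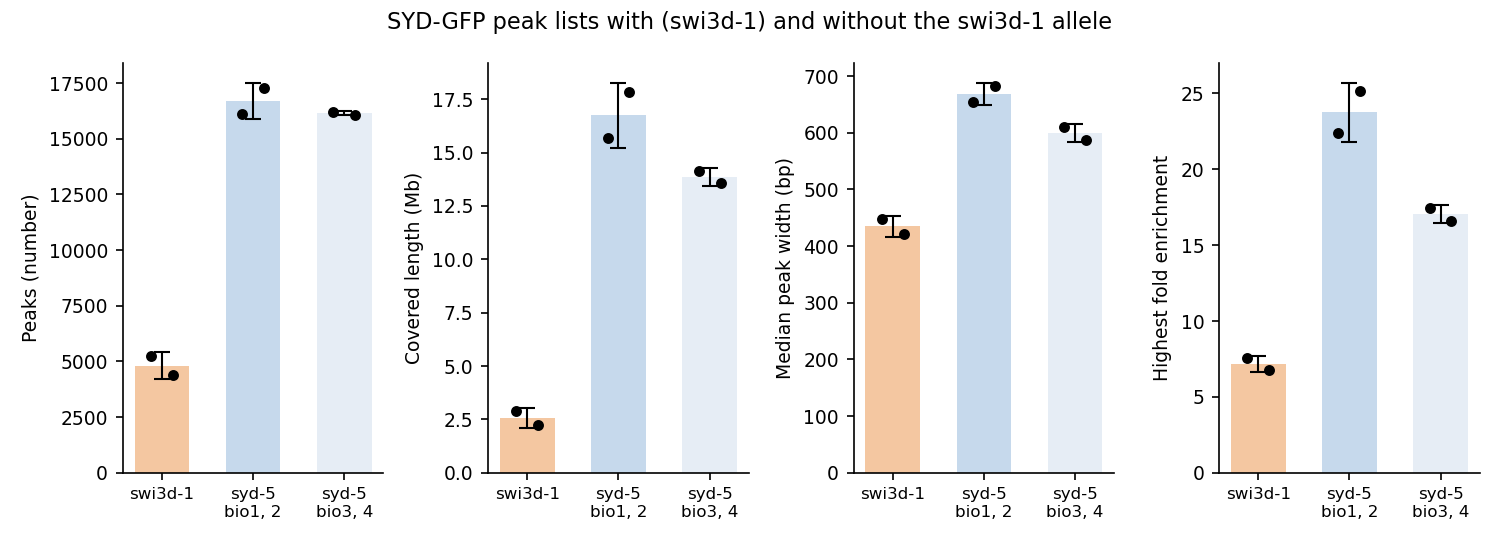
Number of peaks, covered length (Mb), median peak width (bp) and highest fold enrichment in each list; points are lists, bars means and error bars SD (n = 2 each), with SYD-GFP syd-5 swi3d-1 on the left. The swi3d-1 lists lie at 5227 and 4383 peaks, below all 4 SYD-GFP syd-5 lists.

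The authors' fold enrichment and −log10 q belong to each peak and were used only within a list, so those of different lists are set side by side without a test. The median fold enrichment was 2.27 and 2.33 in swi3d-1, against 3.28 and 3.30 in SYD-GFP syd-5. The highest was 7.55 and 6.80 in swi3d-1, against 22.4 and 25.1. A −log10 q of at least 10 was reached by 1065 and 555 peaks in swi3d-1, against 9761 and 11313 peaks. The depth of the lists is unknown, since they hold no read numbers, and its part in these differences was not tested.

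Nearly all SYD peaks of the swi3d-1 line touched a site where SYD was also called with SWI3D present, counting an overlap of 1 bp. Between 95.4% and 97.4% of the peaks of a swi3d-1 list overlapped a peak of a given SYD-GFP syd-5 list, over 8 such pairs. The 2 swi3d-1 lists shared 3107 regions, of which 2.45% overlapped no SYD region by 1 bp. Where 50% of both peaks had to overlap, 1722 of them (55.4%) had no such match in SYD-GFP syd-5 bio1 or bio2. A narrow peak inside a much wider one fails that setting, so these 1722 do not all lie elsewhere. In the other direction, 21.3% to 28.3% of SYD-GFP syd-5 peaks overlapped a peak of a swi3d-1 list. The shared fraction of covered bases (Jaccard index) was 0.119 to 0.196 between the lines, 0.415 between the 2 swi3d-1 lists and 0.674 to 0.764 among the 4 SYD-GFP syd-5 lists.

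Of the 14462 SYD regions, 2813 were kept, 2313 were partly kept and 9336 were lost in swi3d-1. These are 19.5% kept (Wilson 95% interval 18.8 to 20.1), 16.0% partly kept (15.4 to 16.6) and 64.6% lost (63.8 to 65.3). The intervals cover counting error only. The swi3d-1 lists had a peak at 29.9% (bio1) and 24.9% (bio2) of the regions, whereas SYD-GFP syd-5 bio3 and bio4 had one at 89.7% and 87.9%. Both bio3 and bio4 had a peak at 83.5% of all regions and at 76.8% of the lost ones.

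The kept share depends on how lists are cut. It was 5.21% where at least 50% of both peaks had to overlap, 4.38% among peaks with a −log10 q of at least 10, and 51.9% where each list was cut to its 4383 strongest peaks. By sample label, which compares other lists over another set of 9882 regions, 83.8% were kept and 5.89% lost.

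Regions of high rank were kept most often. Rank is the mean over SYD-GFP syd-5 bio1 and bio2 of the percentile, within the list, of the highest −log10 q in the region. With the regions split by rank into 10 equal groups, numbered from 1 (lowest) to 10 (highest), the kept share was 1.38% in group 1, 7.95% in group 5, 24.6% in group 8, 46.0% in group 9 and 80.9% in group 10. In group 10 it was 13.8% where 50% of both peaks had to overlap and 36.4% among peaks with a −log10 q of at least 10. The lost share was 92.6% in group 1 and 5.74% in group 10, where 83 regions were lost. By fold enrichment the kept share likewise ran between 1.73% in the lowest and 80.8% in the highest group. By width it ran between 1.66% in the lowest group, of 275 to 447 bp, and 61.4% in the highest, of over 2478 bp.

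Kept regions had a median rank of 88.5, partly kept ones of 67.6 and lost ones of 42.7. Their median fold enrichment in SYD-GFP syd-5 bio1 was 6.92 for kept, 4.23 for partly kept and 2.91 for lost regions, and in bio2 it was 7.46, 4.51 and 3.15. The median width was 1635 bp for kept, 982 bp for partly kept and 693 bp for lost regions. Within each of the 10 rank groups, too, kept regions were wider at the median than lost ones. The margin was wide in group 10 (2541 against 2082 bp), where the median rank differed as well (96.0 against 93.1). It was slight in group 7 (1014 against 1005 bp, median ranks 68.36 and 68.44) and group 8 (1247 against 1241 bp, median ranks 78.3 and 77.4).

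Shorter lists of the line with SWI3D were spread differently over the rank groups. SYD-GFP syd-5 bio3 and bio4 were cut to their 5227 and 4383 strongest peaks, as many as the swi3d-1 lists hold, and regions with a peak of both cut lists were counted. The swi3d-1 lists kept 80.9%, 46.0% and 24.6% of rank groups 10, 9 and 8, against 99.7%, 92.2% and 54.6% for the cut lists. In group 5 the swi3d-1 lists kept 7.95%, against 0.692% for the cut lists, and in group 1 they kept 20 regions, against 1. Set beside the cut lists, the swi3d-1 lists missed more regions near the top of the range and held more near the bottom. The cut takes the peaks of highest −log10 q, so high shares at the top and low shares at the bottom follow partly from it. Regions held by both the cut lists and the swi3d-1 lists were not counted. Over all groups the cut lists both held 26.6% of the regions, and neither held 64.5%.

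**Figure D2:**
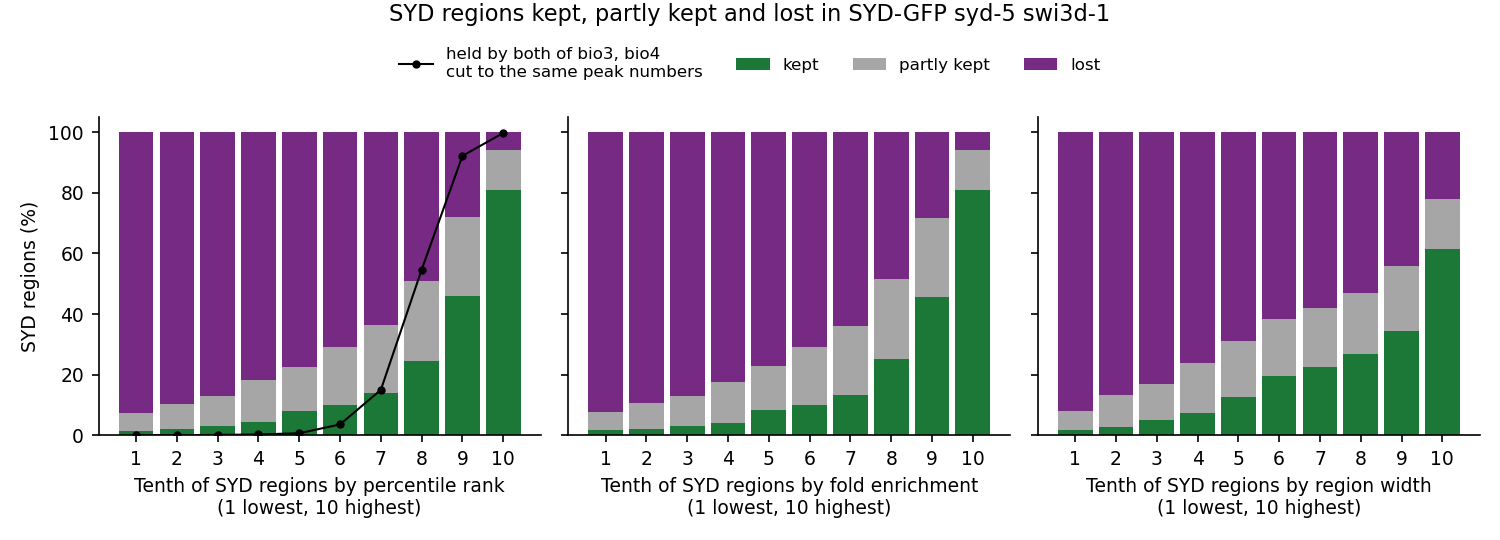
Share of SYD regions (%) kept, partly kept and lost in SYD-GFP syd-5 swi3d-1, in 10 equal groups by percentile rank, fold enrichment and width. The line in the left panel is the share held by both SYD-GFP syd-5 bio3 and bio4 when cut to 5227 and 4383 peaks; it reaches 99.7% in group 10, where swi3d-1 kept 80.9%.

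At most kept regions the strongest SYD summit lay within 150 bp of its place in SYD-GFP syd-5. A kept region holds an overlapping swi3d-1 peak by definition, which limits how far it can move. The strongest swi3d-1 summit lay a median of 54 bp (bio1) and 63 bp (bio2) from the strongest SYD-GFP syd-5 bio1 summit, and 76.9% and 72.7% lay within 150 bp. Between SYD-GFP syd-5 bio3 and bio1 the median distance was 33 bp, and 88.7% lay within 150 bp. Over 500 bp away lay 11.3% (bio1) and 13.2% (bio2) of the swi3d-1 summits, against 6.11% between bio3 and bio1. The peaks themselves were shorter: at the 2813 kept regions the strongest peak had a median width of 517 and 458 bp in swi3d-1, against 1389 and 1542 bp in SYD-GFP syd-5 bio1 and bio2. Their median fold enrichment was 2.47 and 2.43 in swi3d-1, against 6.92 and 7.46.

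The order of strength at kept regions was partly shared. Over the 2813 kept regions, Spearman's rho between SYD rank and the percentile in the swi3d-1 list was 0.64 for bio1 and 0.55 for bio2, and 0.64 between the 2 swi3d-1 lists. Between SYD-GFP syd-5 bio1 and bio2 it was 0.97. These values describe regions that share their libraries and were chosen for having a peak in every list.

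The 5 kept regions of highest rank include the strongest SYD peaks of the genome. The first, chr1:21363935-21365221 (TAIR10), has its summit inside Cand1, a regulator of cullin ubiquitin ligases. Its fold enrichment was 7.55 and 6.80 in swi3d-1, against 22.4 and 25.1 in SYD-GFP syd-5 bio1 and bio2 and 17.1 and 16.6 in bio3 and bio4. It is the highest peak of all 4 lists compared here by fold enrichment. The other 4 lie in AT4G03113 (chr4:1382174-1383120), beside AT1G22882 (chr1:8097357-8099161), beside the trehalose-6-phosphate synthase family gene TPS7 (chr1:1952352-1955620) and in AT2G18090 (chr2:7863800-7864773). At TPS7 the fold enrichment was 6.44 and 4.27 in swi3d-1, against 20.4 and 23.1. All 26 lists had a peak at each of these 5 regions.

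The 5 lost regions of highest rank had SYD peaks of 10.3- to 12.5-fold in SYD-GFP syd-5 bio1 and 10.9- to 13.7-fold in bio2. The first, chr5:17828468-17829754, lies beside AT5G44260. Neither swi3d-1 list had a peak there, whereas SYD was enriched 12.5- and 13.7-fold in bio1 and bio2 of SYD-GFP syd-5, and 9.95- and 9.74-fold in bio3 and bio4. Each of the other 24 lists had a peak there, including those of SWI3D and of SYD in brm-1. The next was chr1:24291824-24292843 beside PP2-A5, a phloem protein 2 family gene, at 11.3- and 10.9-fold in SYD-GFP syd-5. The third, chr1:10957289-10960903, lies nearest DIS2, which encodes a subunit of the actin-nucleating ARP2/3 complex, at 10.99- and 11.1-fold. The remaining 2 lie nearest AT5G09430 (chr5:2933319-2936186) and AT1G05020 (chr1:1430044-1435639). Of these 5 regions, 4 had a peak in all 4 lists of MINU2, BSH and SWI3A, so such peaks are no guarantee that a region was kept.

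The 5 kept regions of lowest rank lie at the other end, with ranks of 3.62 to 11.1. Beside AT1G18070 (chr1:6213420-6213759) the fold enrichment was 1.91 and 1.99 in swi3d-1, against 1.95 and 2.08 in SYD-GFP syd-5. In HCF107 (chr3:5808387-5809299), which encodes a chloroplast RNA-binding protein, it was 1.83 and 2.09 in swi3d-1, against 2.01 and 2.08. In emb2738 (chr3:3847528-3847892) it was 2.07 and 2.48 in swi3d-1, against 2.22 and 2.04. Beside AT5G26690 (chr5:9309930-9310556) it was 2.11 and 2.09 in swi3d-1, against 2.01 and 1.79. The fifth, beside AT2G08986 (chr2:3627016-3627387), had a low fold enrichment of 1.76 and 1.81 in swi3d-1 with a −log10 q of 177 and 157, against 1.13- and 1.08-fold with a −log10 q of 3.68 and 1.52. All 5 had peaks of all 4 lists of MINU2, BSH and SWI3A.

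Few swi3d-1 regions lacked a SYD peak in SYD-GFP syd-5 bio1 and bio2. The 2 swi3d-1 lists shared 3107 regions, of which 76 (2.45%) overlapped no SYD region by 1 bp and 53 (1.71%) had no peak at all in SYD-GFP syd-5 bio1 or bio2. Without swi3d-1 bio1 the share that overlapped no SYD region was 4.36%, and without swi3d-1 bio2 it was 3.85%. Of these 53 regions, 43 had a peak in bio3 or bio4, and 47 had one in each MINU2 list, so most were not called in swi3d-1 alone. In all, 40 of the 53 (75.5%) lay in gene-poor 1 Mb bins, against 1.54% of the other 3054. A gene-poor bin holds under 50% of the median number of genes per bin, which applied to 20 of 116 bins. The fold enrichment was under 2.5 in both lists at 50 of the 53 (94.3%), against 42.5% of the other 3054, and 36 were in the highest of 10 rank groups of the swi3d-1 regions.

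The highest ranked of the 53 was chr3:13591192-13592363, with 1.65- and 1.83-fold enrichment and a −log10 q of 530 and 631. The next 4 were chr4:3950557-3951596, chr4:3054523-3055578, chr5:11184939-11185219 and chr2:3625683-3626390, at 1.60- to 2.06-fold in bio1 and 1.71- to 2.25-fold in bio2. Such low and highly significant peaks lead the swi3d-1 lists: among the 20 peaks of highest −log10 q, 17 and 19 had a fold enrichment under 2.5 in swi3d-1, against 0 and 0 in SYD-GFP syd-5 bio1 and bio2 and 2 and 4 in bio3 and bio4.

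Kept regions lay closer to genes. The nearest gene was taken from the RefSeq table of assembly TAIR10.1, with protein-coding genes only and without strand. The strongest SYD summit lay inside a gene at 42.6% of kept and 39.4% of lost regions, within 1 kb of one at 49.2% and 44.2%, and farther away at 8.21% and 16.4%. Regions of the same rank differed more. In rank group 8 the summit lay farther than 1 kb from a gene at 2.82% of kept, 10.97% of partly kept and 23.0% of lost regions, and in group 10 at 14.0%, 32.5% and 34.9%. Inside a gene it lay at 48.5% of kept and 31.4% of lost regions of group 8. The share far from a gene was lower at kept than at lost regions in all 10 rank groups.

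Along the chromosomes the kept share varied between 3.39% and 31.5% over the 99 bins of 1 Mb with at least 50 regions, with a median of 19.0%. By whole chromosome the kept share was 17.0% on chromosome 2 and between 19.1% and 20.6% on the other 4. It was 12.6% (41 of 326) in gene-poor bins and 19.6% elsewhere, with median ranks of 54.6 and 55.1. Within 2 Mb of a chromosome end 23.3% were kept, between 2 and 5 Mb 20.6%, between 5 and 10 Mb 17.5% and beyond 10 Mb 15.0%, where the median rank was 51.4 against 55.5 at the ends.

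Nearly all regions that SYD kept without SWI3D also held peaks of the MINU class, more often than lost regions of the same SYD rank. Over all 2813 kept regions, the lists of MINU2, BSH and SWI3A had peaks at 98.8% to 99.5%, against 63.3% to 73.3% of lost ones. SWI3D-GFP swi3d-1 had peaks at 95.6% to 98.3% of kept and 61.8% to 80.8% of lost regions. BRM-GFP brm-1 had them at 97.0% to 97.7% and 78.7% to 80.0%. Nearly all kept regions thus held peaks of SWI3D and BRM too. To compare regions of similar rank, the share with a peak of each other list was taken within each of the 10 rank groups. These shares were then averaged over the groups, and ranks inside a group can still differ. Peaks of MINU2-GFP minu2-1 bio1, the ATPase of that class, lay at 97.9% of kept and 66.5% of lost regions. Those of MINU2-GFP minu2-1 bio2 lay at 98.7% and 72.1%. Those of SWI3A-GFP swi3a-3 lay at 99.4% and 68.0%, and those of BSH-GFP bsh at 98.5% and 77.2%. In each of these 4 lists the share was higher at kept regions in 10 of 10 rank groups. The mean difference over the 4 lists was 27.7 percentage points.

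The differences were smaller for SWI3D-GFP swi3d-1 and BRM-GFP brm-1 in plants without syd-5. Averaged over the rank groups, peaks of SWI3D-GFP swi3d-1 lay at 75.3%, 90.2% and 90.5% of kept regions in bio1, bio2 and bio3. At lost regions the values were 71.0%, 84.6% and 85.6%, a mean difference of 4.90 points. Peaks of BRM-GFP brm-1 bio1 and bio2 lay at 88.1% and 84.7% of kept and 84.7% and 83.9% of lost regions. Peaks of SYD-GFP syd-5 bio3 and bio4, which share the line of the regions, lay at 90.6% and 92.2% of kept and 89.4% and 87.5% of lost regions. With the other lists each cut to 7062 peaks, the shortest among them, the mean difference was 46.8 points for MINU2, BSH and SWI3A and -0.43 points for SWI3D, so the sign of the small SWI3D difference depends on this choice.

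Single rank groups show the pattern in numbers. In group 8, with 355 kept and 708 lost regions, MINU2 bio1 had a peak at 353 kept (99.4%) and 512 lost regions (72.3%), with Wilson intervals of 98.0 to 99.8 and 68.9 to 75.5. SWI3A had one at 353 kept and 521 lost regions (73.6%), and BSH at 355 kept and 589 lost regions (83.2%). SWI3D bio2 had one at 353 kept (99.4%) and 696 lost regions (98.3%). In the lowest group all 20 kept regions held peaks of MINU2 bio1, MINU2 bio2, BSH and SWI3A, against 56.9%, 60.4%, 63.4% and 61.8% of the 1340 lost ones. In group 10 the peaks of SWI3A lay at 98.3% of 1170 kept and 73.5% of 83 lost regions.

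The strength of the other peaks moved the same way and brought in the shared subunits. Within their own lists, MINU2 bio1 peaks had a median percentile of 75.2 at kept and 44.6 at lost regions of equal rank, MINU2 bio2 peaks of 75.2 and 43.8, BSH peaks of 76.7 and 44.3 and SWI3A peaks of 72.3 and 44.0. SWP73B, BCL7A and BCL7B had peaks at most regions of either kind, but their percentile was 76.6, 78.6 and 75.3 at kept regions, against 50.7, 53.0 and 55.8 at lost ones. In all 7 of these lists it was higher at kept regions in 10 of 10 rank groups. For SWI3D bio1, bio2 and bio3 it was 44.2, 52.3 and 51.7 at kept and 46.8, 53.2 and 53.3 at lost regions, and for BRM bio1 and bio2 54.4 and 54.2 at kept and 54.6 and 53.8 at lost regions.

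**Figure D3:**
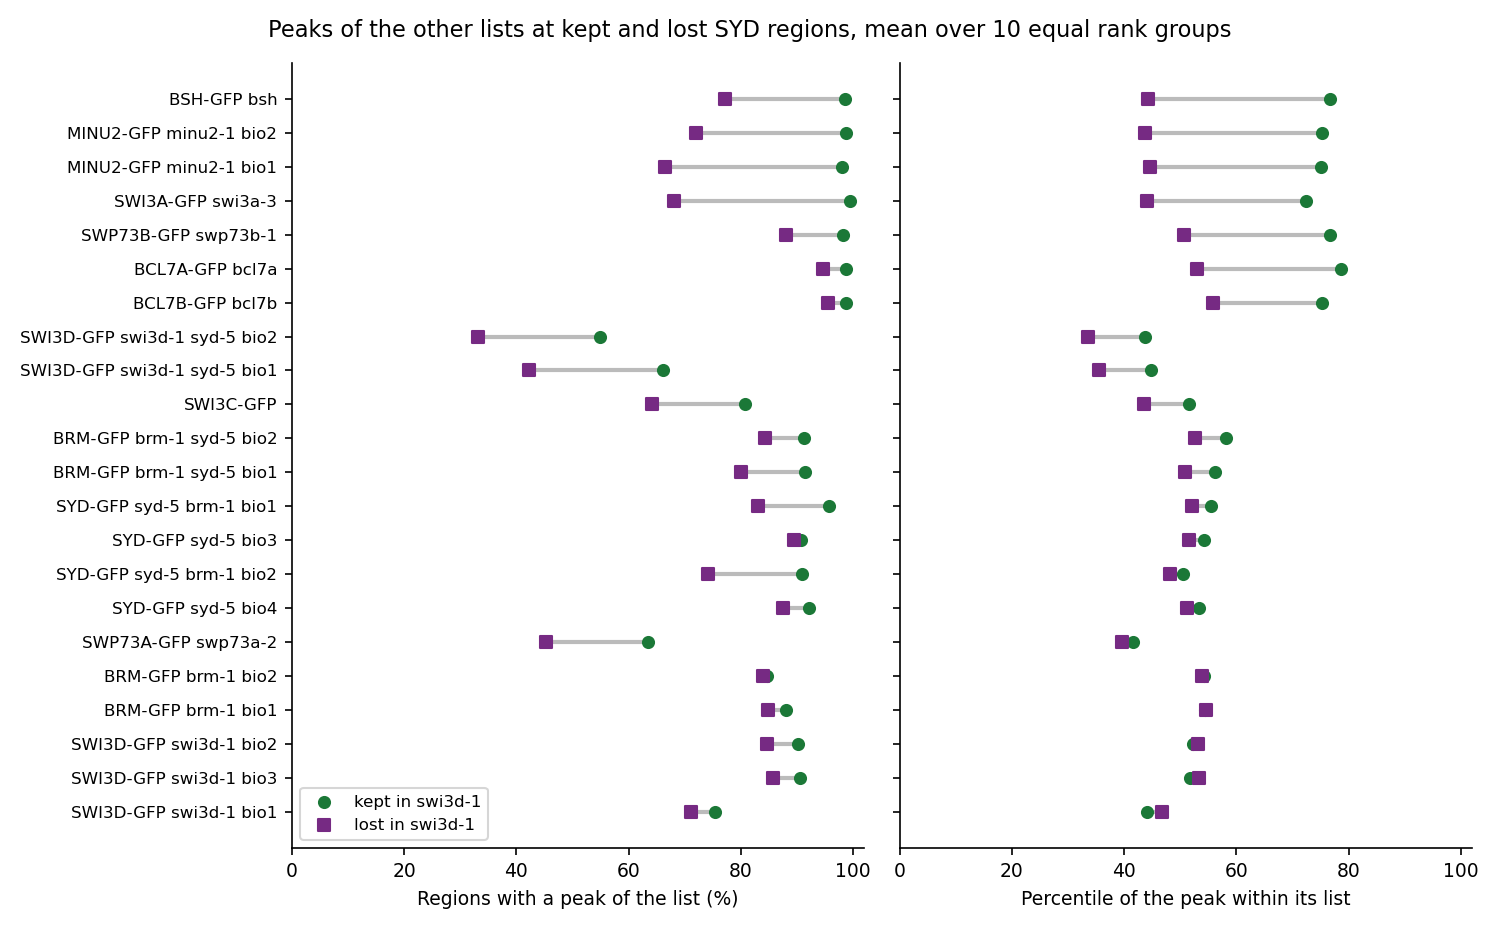
Each of the other 22 lists at kept (circles) and lost (squares) SYD regions, as the mean over 10 equal rank groups. Left, share of regions with a peak (%); right, median percentile of that peak within its list; the widest gaps on the right are those of BSH, MINU2 and SWI3A, and those of BRM-GFP brm-1 and SWI3D-GFP swi3d-1 without syd-5 lie near 0.

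Other lists differed too, some as much as those of the MINU class. SWI3D-GFP swi3d-1 syd-5, in which SYD is mutant, had peaks at 66.2% (bio1) and 54.9% (bio2) of kept and 42.3% and 33.2% of lost regions of equal rank. These differences of 23.9 and 21.7 points are larger than the 21.3 points of BSH. SWI3C, the scaffold of the BRM class, had peaks at 80.7% of kept and 64.2% of lost regions. SWP73A had peaks at 63.5% of kept and 45.3% of lost regions, with near equal percentiles of 41.6 and 39.6. These 4 lists are the shortest of the other 22, with 7062 to 12242 peaks. SYD-GFP syd-5 brm-1 bio1 and bio2 had peaks at 95.7% and 90.9% of kept and 83.03% and 74.2% of lost regions. BRM-GFP brm-1 syd-5 bio1 and bio2 had peaks at 91.4% and 91.2% of kept and 80.0% and 84.2% of lost regions.

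Part of such a difference also appeared when no SWI3D mutant was involved. In rank groups 6 to 9, the only ones with 20 or more regions in every class, the share of MINU2 bio1 peaks was 28.6 points higher at kept than at lost regions in swi3d-1, against 11.5 points for the bio3 and bio4 lists cut to the same peak numbers. For MINU2 bio2 the values were 22.4 and 11.6 points, for SWI3A 27.9 and 15.8 and for BSH 16.4 and 10.4. For SWI3C they were 12.4 and 12.8, for SWP73A 24.0 and 22.7, and for SWI3D bio2 1.51 and 2.66. For SWI3D-GFP swi3d-1 syd-5 they were 25.4 and 22.2 in bio1 and 30.8 and 25.3 in bio2. The 30.8 points of bio2 were the largest difference of the 22 lists in swi3d-1.

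The 4 lists of MINU2, BSH and SWI3A all carry a sample label of another line, so this pattern rests on the list names. By label they are SYD-GFP syd-5 (2), SYD-GFP syd-5 brm-1 and SWP73B-GFP swp73b-1. Their Jaccard index was 0.688 to 0.747 among themselves, 0.353 to 0.428 with the lists named SYD-GFP syd-5 bio1 to bio4, 0.313 to 0.397 with those named SYD-GFP syd-5 brm-1, and 0.625 to 0.694 with that named SWP73B-GFP swp73b-1. All 4 belong to the 12 lists that hold organelle peaks, as do the 3 lists of SWI3D-GFP swi3d-1.

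Counted the other way, few regions were kept without a peak of all 4 of these lists, while most regions with all 4 were not kept either. Of the 1999 SYD regions with a peak of none of them, 5 were kept (0.250%) and 1977 lost (98.9%). Of the 737 with a peak of 1 list 5 were kept, of the 672 with 2 lists 17, and of the 906 with 3 lists 31. Of the 10148 with a peak of all 4, 2755 were kept (27.1%) and 5255 lost (51.8%). Regions with none had a lower median rank, 34.5 against 61.3. Within rank group 8, 351 of 1139 regions with all 4 were kept (30.8%, Wilson interval 28.2 to 33.6), against 0 of 79 with none (0 to 4.64). In group 9 it was 649 of 1253 (51.8%) against 1 of 28.

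**Figure D4:**
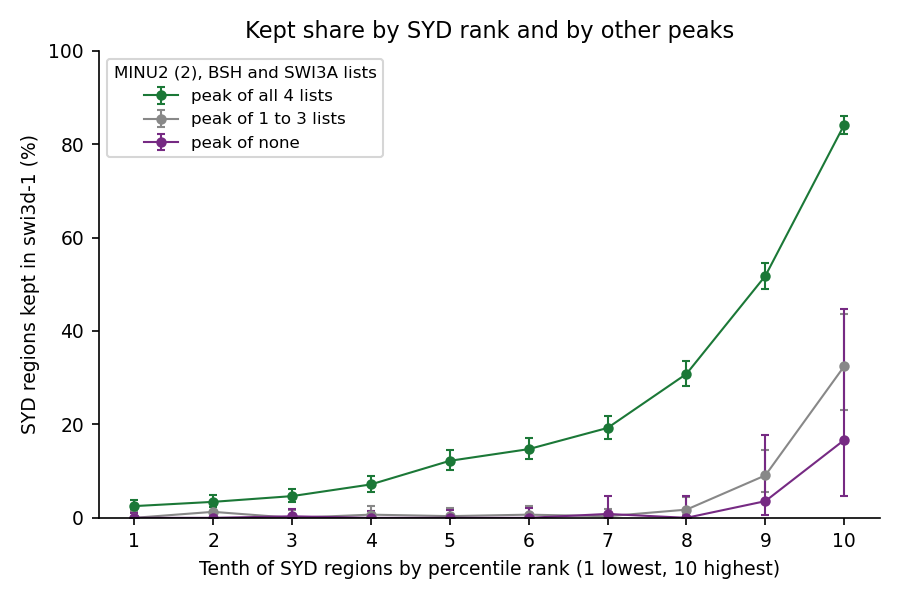
Share of SYD regions kept in swi3d-1 (%) in each rank group, for regions with a peak of all 4 lists of MINU2 (2), BSH and SWI3A, of 1 to 3 of them or of none; bars are Wilson 95% intervals. Regions with a peak of none stay near 0 up to group 8, where 30.8% of those with all 4 were kept.

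Genes were followed through their strongest SYD region in the gene body or within 1 kb of it. Of 27444 protein-coding genes, 16827 had such a region, which was kept for 28.7%, partly kept for 18.9% and lost for 52.3% of them. The median rank was 65.2. Of 124 genes in 7 chosen lists, 107 had a SYD region, with a median rank of 81.7, of which 46 (43.0%) were kept, 22 partly kept and 39 lost. In the highest rank group 32 of 36 list genes were kept (88.9%), beside 85.5% of all 2632 genes there, and in groups 1 to 5 it was 1 of 28, beside 320 of 6505.

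**Figure D5:**
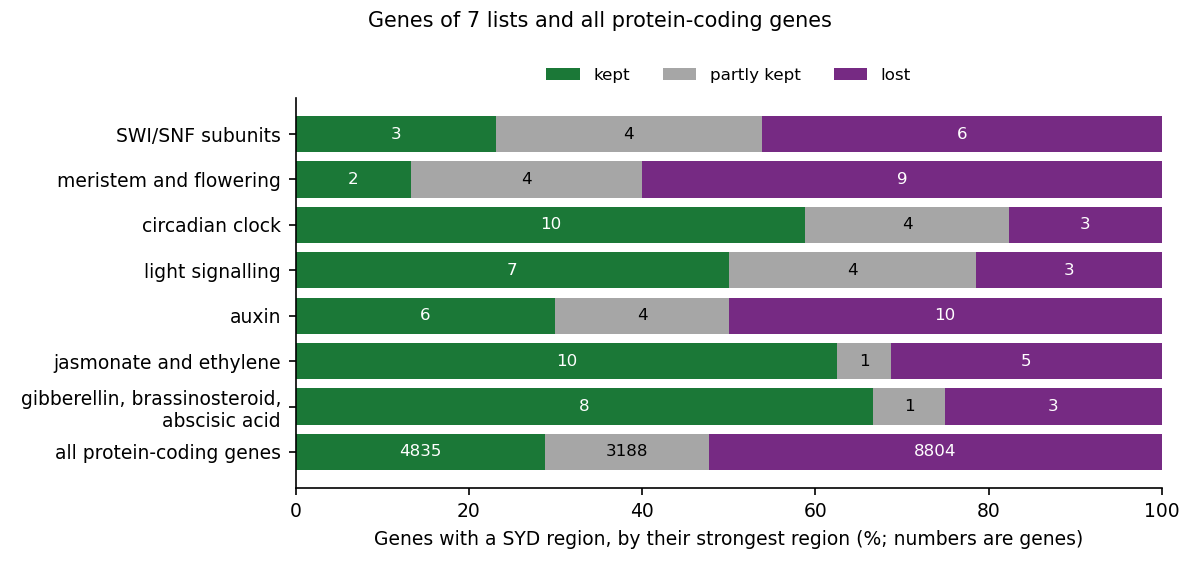
Genes with a SYD region in each of 7 lists and among all protein-coding genes, split by whether the strongest region was kept, partly kept or lost in swi3d-1 (% of genes; numbers are genes). All protein-coding genes, the lowest bar, are at 28.7% kept.

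Of 17 circadian clock genes with a region, 10 were kept, 4 partly kept and 3 lost. That is 58.8% kept at a median rank of 79.0, beside 28.7% of all genes at a median rank of 65.2. The kept ones include the morning-phased repressors CCA1 and LHY, PRR9 and PRR5, the evening complex gene LUX, and GI. CHE, which represses CCA1, had the highest rank, at 3.54- and 2.83-fold in swi3d-1, against 14.6- and 16.7-fold in SYD-GFP syd-5. LHY was at 3.14- and 2.93-fold in swi3d-1, against 9.77- and 11.5-fold. FKF1, a blue light receptor that times flowering, was kept at a rank of 51.7, at 1.95- and 2.04-fold in swi3d-1, against 3.49- and 3.25-fold. ELF3, an evening complex gene of the lowest rank (19.5), was lost, at 2.06- and 2.62-fold in SYD-GFP syd-5, as were ELF4 and RVE4.

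Among jasmonate and ethylene genes 10 of 16 were kept (62.5%, beside 28.7% of all genes), 1 partly kept and 5 lost. The median rank of the list was 92.7, against 65.2 for all genes, and all 10 kept ones were in the highest rank group. They include MYC2, the transcription factor of jasmonate responses, and its repressors JAZ1, JAZ2, JAZ5 and JAZ10. JAZ1 was at 2.90- and 3.48-fold in swi3d-1, against 15.2- and 16.2-fold in SYD-GFP syd-5. EBF1, which targets EIN3 for degradation, had the highest rank, at 4.13- and 4.82-fold in swi3d-1, against 15.3- and 16.5-fold. The lost ones were the jasmonate receptor gene COI1, LOX2, VSP2, the ethylene receptor gene ETR1 and ERF1, which had the lowest rank (6.66).

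Of 12 gibberellin, brassinosteroid and abscisic acid genes 8 were kept (66.7%, beside 28.7% of all genes), 1 partly kept and 3 lost. Their median rank was 85.8, against 65.2 for all genes. The brassinosteroid receptor gene BRI1 had the highest rank, at 2.86- and 3.48-fold in swi3d-1, against 17.96- and 16.5-fold. The DELLA repressor genes GAI and RGA, the brassinosteroid factors BZR1 and BES1, the phosphatase genes ABI1 and HAB1, and ABI5 were also kept. ABI2, the kinase gene OST1 and ABI3, of the lowest rank (10.02), were lost.

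Of 14 light signalling genes 7 were kept, 4 partly kept and 3 lost, beside 28.7% kept of all genes. The median rank of the list was 89.7, against 65.2 for all genes. In the highest rank group 5 of its 7 genes were kept (71.4%), beside 85.5% of all genes there. Kept were the phytochrome genes PHYA and PHYB, PIF4 and PIF5, HY5, COP1 and HFR1, the last with the highest rank, at 2.505- and 2.19-fold in swi3d-1, against 9.51- and 10.7-fold. PIF1, of the lowest rank (47.0), PIF3 and the blue light receptor gene CRY1 were lost.

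Of 20 auxin genes with a region 6 were kept (30.0%, beside 28.7% of all genes), 4 partly kept and 10 lost, at a median rank of 88.2. ARF2, an auxin response factor gene, had the highest rank, at 3.46- and 3.38-fold in swi3d-1, against 16.3- and 15.3-fold in SYD-GFP syd-5. The auxin receptor gene TIR1 was at 3.66- and 3.48-fold in swi3d-1, against 14.2- and 15.0-fold. TAA1, of auxin synthesis, had the lowest rank (8.36) and was lost.

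Of the auxin efflux carrier genes PIN2, PIN3, PIN4 and PIN7, singled out after their values were seen, none was kept. PIN4 had no swi3d-1 peak at its strongest region, where SYD-GFP syd-5 had 7.13- and 8.63-fold enrichment. PIN7 had a peak in swi3d-1 bio2 alone, of 1.89-fold, against 10.1- and 11.9-fold, and PIN3 a 2.38-fold peak in bio2 alone, against 9.46- and 10.7-fold. PIN2 was lost at a rank of 55.9.

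Of 15 meristem and flowering genes 2 were kept, 4 partly kept and 9 lost. The kept share of 13.3%, beside 28.7% of all genes, was the lowest of the 7 lists. The median rank was 72.5, against 65.2 for all genes. The list had 2 genes in the highest rank group, and these were the kept ones. They were PI, a floral organ identity gene of the highest rank, at 2.90- and 2.78-fold in swi3d-1, against 11.7- and 12.1-fold, and SOC1, a floral integrator, at 3.33- and 3.38-fold, against 7.93- and 9.06-fold. WUS, the stem cell organiser gene and a known SYD target, had the lowest rank (32.5) and was lost, at 3.01- and 2.37-fold in SYD-GFP syd-5 bio1 and bio2, and it had no peak in bio3 and bio4. LFY, AP3, SEP3, FLC, CO, CUC1, KNAT1 and AS2 were also lost. At AP3 the SYD-GFP syd-5 peaks were 7.13- and 7.17-fold.

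Of 13 genes of SWI/SNF subunits with a region 3 were kept (23.1%, beside 28.7% of all genes), 4 partly kept and 6 lost. Their median rank was 50.5, against 65.2 for all genes. The highest rank was that of AT5G55040, at 4.33- and 3.72-fold in swi3d-1, against 12.2- and 13.0-fold. BRM was kept at 2.19- and 2.14-fold in swi3d-1, against 7.34- and 7.89-fold. The SWI3D gene itself had the lowest rank (17.3) with no peak in swi3d-1 bio1 and a 1.99-fold peak in bio2, against 2.38- and 2.18-fold in SYD-GFP syd-5. The SYD gene held 2 and 3 peaks in swi3d-1, the highest of 1.93- and 2.18-fold, against 4 and 3 peaks with the highest of 2.43- and 3.49-fold in SYD-GFP syd-5. Peaks over these genes do not measure whether the gene is expressed or deleted, so they do not check the genotypes.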

How the data were processed

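The data are 26 peak lists of ChIP-seq with an antibody against GFP, of which 4 were compared and 22 set beside them. Per the submitters' processing notes, fastp, Bowtie2, MACS2 2.0, deepTools and ChIPseeker were used with build TAIR10, with no role given. Peaks were called per sample, since each deposited list belongs to 1 sample. Each peak's deposited fold is a ratio on a linear scale, and the background beneath it is not given in the sources used here. The deposited −log10 p and −log10 q are the peak caller's, and the deposited score follows the −log10 q, times 10. A summit offset is also deposited. The lists hold no read counts, so depth is unknown and no count test was possible.

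Lines follow the names of the deposited lists, not the labels. SYD-N-GFP in those names is written SYD-GFP. Only chromosomes 1 to 5 were used. Regions, rank and groups are as the report defines them, and were computed with Python 3.11.15, NumPy 2.4.6, pandas 2.3.3 and SciPy 1.17.1, with figures drawn in matplotlib 3.10.9. Peak number, covered length and median width were compared by the log2 ratio of means with exact two-sided permutation tests and Benjamini-Hochberg adjustment over 3 tests. Shares of regions have Wilson 95% intervals, which cover counting error only, and no test, since regions are not replicates. The overlap and rank steps were tested on simulated data.

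The regions named are the 5 kept and 5 lost of highest rank, the 5 kept of lowest rank and the 5 highest swi3d-1 regions without a SYD-GFP syd-5 peak. Of each gene list the genes of highest and lowest rank are named, and others were added with their values in view. The members, the gene lists and the lists of MINU2, BSH and SWI3A were chosen with earlier results of these data known.

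Genes come from the RefSeq table of TAIR10.1, whose nuclear chromosomes were taken to match TAIR10. Of SYD summits 70.8% lay within 500 bp of a gene end, against 38.1% to 40.9% when all genes were shifted by 2000 to 20000 bp in either direction. The table gives no strand, so 1 kb upstream and downstream were not told apart, and no coordinates from it are printed. Sequence motifs were not analysed here. Alternatives were another overlap, a −log10 q of at least 10, equal peak numbers, each list left out, all 4 SYD-GFP syd-5 lists, lines by label and pairing by bio number. The alternatives for other subunits and the bio3 and bio4 lists cut to the swi3d-1 peak numbers were chosen after seeing the data. There were 0 columns that could not be mapped.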

Additional observations from a re-analysis of the deposited data

Results flagged for a closer look

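Among the 4 lists named SYD-GFP syd-5, bio2 stood apart in peak number. It held 17283 peaks, against 16082 to 16223 in the other lists, a gap of 0.883 of the range of the group. For a single quantity, chance takes about 1 group in 20 past the limit used for such a gap. Covered length, median width, median fold and highest fold were screened too, so a gap in any of them is likelier than that. Only peak number passed the limit. Without bio2 the log2 ratio of peak number between swi3d-1 and SYD-GFP syd-5 was -1.75, against -1.80 with it.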

How the results depend on the processing

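The 3 log2 ratios kept their sign under every alternative run. With each list left out in turn they ranged between -1.93 and -1.68 for peak number, -2.89 and -2.53 for covered length and -0.66 and -0.58 for median width. With a −log10 q of at least 10 they were -3.70, -4.46 and -0.60, and with 4383 peaks per list covered length and median width were at -1.80 and -1.73. With all 4 SYD-GFP syd-5 lists they were -1.77, -2.57 and -0.54 (exact permutation p = 0.0667 each). Pairing by bio number (replicate block) gave -1.80, -2.71 and -0.62. The numbers pair no shared animal, batch or day by label, and 2 pairs cannot show a pairing.

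The shares of regions moved with nearly every choice; the cause was not tested, beyond what each setting does by construction. Kept, lost, kept in the highest rank group and swi3d-1 regions outside SYD regions were as follows. Without a list in turn they ranged between 16.4% and 29.9%, 67.2% and 75.1%, 75.9% and 91.6%, and 1.90% and 4.36%. The highest kept share was that without swi3d-1 bio2, where a peak of bio1 alone counts as kept. The share outside SYD regions was 4.36% without swi3d-1 bio1 and 3.85% without bio2. With 50% overlap of both peaks they were 5.21%, 82.9%, 13.8% and 55.4%, the last counting regions without such an overlap, also inside SYD regions. With a −log10 q of at least 10 the shares were 4.38%, 88.4%, 36.4% and 10.02%, and with 4383 peaks per list 51.9%, 27.1%, 94.9% and 22.3%. With all 4 SYD-GFP syd-5 lists they were 23.1%, 59.0%, 85.8% and 3.89%, and by sample label 83.8%, 5.89%, 99.8% and 28.6%. The bio3 and bio4 lists cut to the swi3d-1 peak numbers kept 26.6% of all regions and 99.7% of the highest group.

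The difference at equal rank for MINU2, BSH and SWI3A (27.7 points) was 30.0 in groups by width, 23.5 with 50% overlap, 15.8 with a −log10 q of at least 10, 46.8 with equal peak numbers and 23.8 to 30.7 without a list in turn. That for SWI3D (4.90 points) was 11.8, 2.60, 4.41, -0.43 and 2.08 to 7.82 in the same order; it was 2.90 without swi3d-1 bio1, 2.08 without swi3d-1 bio2 and 7.82 without SYD-GFP syd-5 bio1. With regions from bio3 and bio4 they were 28.2 and 4.83, in groups by fold 27.4 and 5.14, and without gene-poor bins 27.4 and 4.57. The depth of the lists is unknown, so what it limits was not tested.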
